A study of Rattus norvegicus with 4 samples.

Results

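The genes described here were Bglap, Ibsp, Alpl and Sp7, proposed as genes of bone-forming cells and chosen by symbol. All 4 were found among the 32623 genes of the table, each once. They were measured by Visium, an array of spots that capture RNA from a tissue section, so that each spot gives counts of unique molecular identifiers (UMIs, 1 per captured molecule) for all genes of a small region that can hold several cell types. Trigeminal root, semilunar ganglion and proximal branches came from adult male wild-type Sprague-Dawley rats. TN1, TN2 and TN3, the trigeminal neuralgia group, each held the diseased side of 1 animal whose trigeminal root had been compressed mechanically on 1 side. The healthy control area (HC) held tissue of 2 animals, which the barcodes do not tell apart, and was taken as 1 sample. The series description takes HC from the healthy side of TN animals, whereas the methods call the controls sham-operated. TN and HC may therefore share animals, and condition and capture area cannot be told apart. The areas held 1587, 1256, 1917 and 2013 spots and 23546025, 38769935, 32239597 and 41335930 UMIs for TN1, TN2, TN3 and HC, with 9487 to 30808 UMIs in the median spot of an area. Of 3573 barcode sequences, 2337 occurred in 2 or more areas and 52 in all 4, so spots were identified by barcode and area together. Levels are in CPM, counts scaled to the same total number of UMIs, over the spots that were summed.

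Bone is laid down by osteoblasts, which secrete a collagen matrix and then help mineral to form in it. Sp7, also called osterix, is a transcription factor that osteoblast formation requires. Alpl encodes tissue-nonspecific alkaline phosphatase, an enzyme of the cell surface that removes the mineralization inhibitor pyrophosphate, and it is also made by vessels, meninges and other tissues. Ibsp encodes bone sialoprotein, and Bglap encodes osteocalcin, a small matrix protein that is modified by a vitamin K-dependent carboxylase. Bone marrow, which makes red blood cells and granulocytes, lies within bone, and the trigeminal ganglion rests on the skull base.

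Promoter windows of the 3 members with an entry in the RefSeq table used here are shown because Bglap and Ibsp both rose in the marrow contrast described below, and Alpl did not pass. Each is the 250 bases before the annotated start of the gene on build GRCr8, read from 5′ to 3′ on the strand of the gene, which is the minus strand in every case. They lie at chr2:176137319-176137568 for Bglap, chr14:5757243-5757492 for Ibsp and chr5:155289786-155290035 for Alpl. The capitals mark matches to ACCACA, the core bound by RUNX factors, which reads TGTGGT when it lies on the opposite strand. They also mark matches to TATAAA, the box that many promoters hold just before the start of transcription, which reads TTTATA when it lies on the opposite strand.
Bglap: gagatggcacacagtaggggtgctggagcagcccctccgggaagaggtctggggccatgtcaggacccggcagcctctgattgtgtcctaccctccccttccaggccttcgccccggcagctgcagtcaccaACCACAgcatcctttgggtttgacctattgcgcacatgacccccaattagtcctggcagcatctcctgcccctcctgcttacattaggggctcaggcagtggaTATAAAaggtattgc
Ibsp: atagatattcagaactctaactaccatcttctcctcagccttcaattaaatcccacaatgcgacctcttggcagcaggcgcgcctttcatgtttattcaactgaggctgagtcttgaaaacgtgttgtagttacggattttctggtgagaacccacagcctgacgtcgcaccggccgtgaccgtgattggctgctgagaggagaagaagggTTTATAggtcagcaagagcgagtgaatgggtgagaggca
Alpl: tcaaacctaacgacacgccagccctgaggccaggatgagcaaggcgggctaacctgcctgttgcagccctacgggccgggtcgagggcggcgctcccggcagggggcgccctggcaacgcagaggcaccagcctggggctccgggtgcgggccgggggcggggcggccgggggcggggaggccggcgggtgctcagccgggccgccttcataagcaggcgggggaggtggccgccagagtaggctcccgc
The ACCACA core was found once, in the Bglap window, starting 118 bases before the gene. TATAAA was found in the Bglap window 15 bases before the gene and, on the other strand, in the Ibsp window. Among 33469 promoter windows of the same length, 14.5% held ACCACA and 12.9% held TATAAA on either strand, and a match describes letters and not a site in use. The Alpl window held neither, and 76.0% of its bases were G or C, against 59.2% for Bglap and 49.2% for Ibsp.

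Sp7, the member that most closely marks osteoblasts, was all but absent. It had 1 UMI in every capture area, 4 UMIs over all 6773 spots. Its level of 0.0242 CPM in HC had an exact 95% Poisson interval of 0.000612 to 0.135 CPM, which covers counting error only. None of the 4 Sp7 UMIs lay in a spot rich in marrow genes. Several other genes of bone cells were also at or near 0. Sost and Fgf23, which osteocytes make, had 0 UMIs in every area, and Ifitm5, a gene of osteoblasts, had 2 or 3. Omd had 0 UMIs in 3 areas and 1 in TN2, Phex had 1 to 5, Mepe 3 to 9, Dkk1 0 to 5 and Dmp1, an osteocyte matrix gene, 7 to 29. The osteocyte list summed to 0.552 to 1.18 CPM over its 6 genes, with 2 or 3 of them at 0 in each area. Other genes listed here for osteoblasts were detected. In TN1, TN2, TN3 and HC, Runx2 had 63, 930, 670 and 64 UMIs and Pth1r 570, 967, 471 and 1682. Dlx5 had 12 to 54, Msx2 14 to 70 and the collagen gene Col1a1 10237 to 57475. Sp7 and the genes near 0 thus do not bear out the label of bone-forming cells, while these others were present. The members are therefore called by their symbols below.

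Bglap, Ibsp and Alpl were detected in every area. Bglap stood at 48.1, 36.1 and 35.5 CPM in the TN areas, in the order TN1 to TN3, and at 147 CPM in HC. The HC value was 3.7 times the TN mean of 39.9 ± 7.12 CPM (SD, n = 3) and 3.07 times the highest TN area. Ibsp stood at 3.10, 8.80 and 4.84 CPM in the same TN areas and at 14.1 CPM in HC, 2.52 times the TN mean of 5.58 ± 2.92 CPM (SD, n = 3) and 1.60 times TN2. Alpl stood at 29.5, 54.4 and 33.4 CPM in TN and at 46.4 CPM in HC, so that HC fell within the range of the TN areas. In order of level, the Poisson intervals of neighbouring areas overlapped for Bglap in TN2 and TN3 and for Alpl in TN1 and TN3, and were apart for all other neighbours of these 3 genes.

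**Figure D1:**
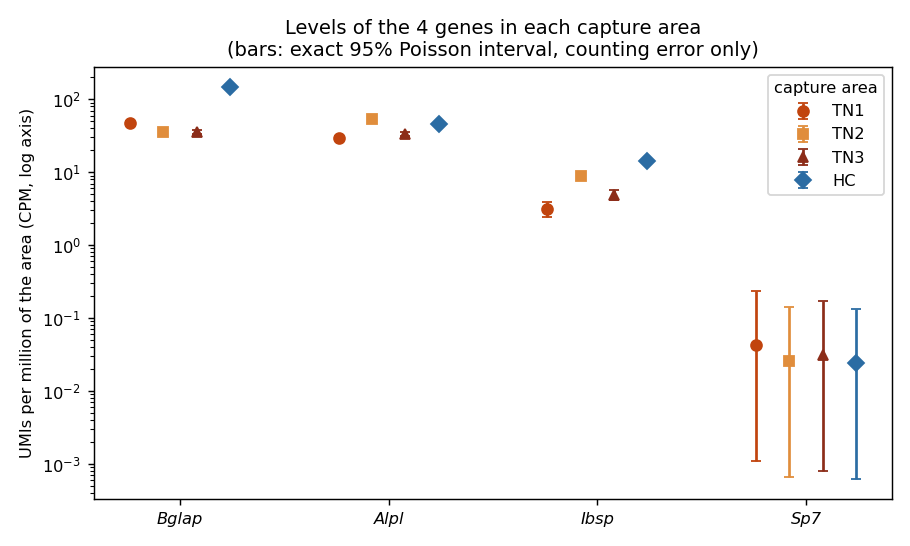
Levels of Bglap, Alpl, Ibsp and Sp7 in the 4 capture areas, in CPM on a log axis, with exact 95% Poisson intervals that cover counting error only. HC lies above the 3 TN areas for Bglap (147 CPM) and Ibsp (14.1 CPM), within them for Alpl (46.4 CPM), and Sp7 rests on 1 UMI in each area.

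Whether these genes differed between TN and HC was tested on the sums per area with edgeR's quasi-likelihood test. No gene of 14902 passed an adjusted p of 0.05, so 0% were called and none of the 3 members tested was. At an unadjusted p under 0.05 there were 1271 genes, of which 711 (4.77% of those tested) were lower in TN, and DESeq2 called 164 of 19895 (0.824%). Bglap had a log2 fold change of -1.97 ± 0.25 (SE) in TN against HC, with an unadjusted p of 0.000516 and an adjusted p of 0.556 (edgeR). The same gene had an adjusted p of 0.000148 with DESeq2, and 0.00942 with edgeR when TN1 was left out, a fit in which 14.8% of 14692 genes were called. Ibsp had a log2 fold change of -1.42 ± 0.56 (SE, adjusted p = 0.556, edgeR) and Alpl -0.33 ± 0.38 (SE, adjusted p = 0.743, edgeR). HC lay above all 3 TN areas for 23.9% of 19895 genes with a UMI, Bglap and Ibsp among them. Marrow genes stood higher in HC as well. The 25 erythroid and granule genes found, of 26 listed, summed to 84.6, 62.9 and 115 CPM in TN1, TN2 and TN3 and to 348 CPM in HC, and their part in the levels of the members was not tested. In sums over spots, fewer cells of a type and less RNA per cell cannot be told apart.

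The genes next to the members in their pathway did not share one direction between TN and HC, and none passed the test. Of the mineralization list, Phospho1, a phosphatase of matrix vesicles, had a log2 fold change of -1.40 ± 0.36 (SE) and Smpd3 of -0.92 ± 0.24. Slc20a2, a phosphate transporter, stood at 1.08 ± 0.26, Ankh, which exports pyrophosphate, at 1.21 ± 0.67, Enpp1, which makes it, at 0.62 ± 0.30 and Slc20a1 at -0.21 ± 0.30. The median of the 6 genes was 0.21, against 0.06 over all genes tested. Of the proteins of the Gla pathway, Mgp, a matrix protein that inhibits calcification, stood at 3.00 ± 1.13, the carboxylase Ggcx at 0.84 ± 0.53 and Vkorc1, which recycles vitamin K, at 0.50 ± 0.38. Mgp had 243, 1455 and 1143 CPM in the TN areas and 111 CPM in HC, with HC lowest where it was highest for Bglap. Of 11 osteoblast list genes tested, with a median of 0.69, Cthrc1 (4.41 ± 1.96), Runx2 (3.27 ± 1.39) and Pth1r (-1.02 ± 0.34) were at the ends. Among the rest were Spp1 at 0.93, Msx2 at 0.92, Tmem119 at 0.91, Dlx5 at 0.69, Sparc at 0.56, Col1a1 at 0.51 and Col22a1 at -0.10, and the osteocyte gene Dmp1 stood at 0.34. Runx2 had 2.68, 24.0 and 20.8 CPM in TN1, TN2 and TN3 and 1.55 CPM in HC. Pmf1, the gene beside Bglap on the chromosome, stood at 0.75 ± 0.63, a positive value where that of Bglap was negative.

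The members differed in how widely they were spread over spots. Bglap had a UMI in 24.1%, 42.0% and 32.8% of the spots of TN1, TN2 and TN3 and in 76.8% of HC (exact 95% interval 74.9% to 78.6%). Ibsp had a UMI in 3.15%, 18.9% and 6.16% of TN spots and 19.1% of HC spots. For Alpl the shares were 25.7%, 63.6% and 34.9% in TN and 48.9% in HC. Since TN2 was the deepest area, each spot was also thinned to 2000 UMIs, which left out 9, 16, 116 and 9 shallower spots. The Bglap shares were then 4.25%, 6.13% and 6.94% in TN1, TN2 and TN3 and 25.6% in HC, and the Ibsp shares 0.380%, 2.02%, 0.50% and 5.84%. The Alpl shares were 4.37%, 9.92%, 5.77% and 9.53%; TN2 and HC had overlapping intervals.

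A small number of spots carried much of the RNA of a member in the TN areas. The 1% of spots richest in Bglap held 39.1%, 32.6% and 21.8% of its UMIs in the TN areas and 15.7% in HC. The spots with most Bglap were unlike each other. In TN1 the top spots held 78, 70 and 60 Bglap UMIs, 0 Ibsp UMIs, 9 to 21 UMIs of the bone and connective tissue collagen Col1a1, and 57 to 427 UMIs of Calca, a peptide gene of sensory neurons. In TN2 1 spot held 194 Bglap and 29 Ibsp UMIs with 974 of Col1a1, and in HC 1 spot held 281 Bglap and 5 Ibsp UMIs with 1446 of Col1a1. The TN3 spot with most Ibsp had 30 of its UMIs, 2 of Bglap and 651 of Col1a1. Alpl peaked in 3 spots of TN2 with 77, 76 and 57 UMIs, where Fmod, a gene of fibrous sheaths, had 21, 29 and 12 UMIs. The same spots held 22, 44 and 34 UMIs of Bglap, 443, 446 and 259 of Col1a1 and 3, 1 and 1 of Ibsp, and the last 2 of them were also the second and the third of TN2 in Bglap. All 12 of the spots with most Alpl, 3 in each area, held 0 to 3 Ibsp UMIs, and those outside TN2 held 0. Most spots held no Ibsp in any area, with a UMI in 3.15%, 18.9%, 6.16% and 19.1% of TN1, TN2, TN3 and HC. These few spots therefore do not show a lack of overlap. Without the 2 or 3 spots per area with most UMIs of a member, the log2 fold change of Bglap in TN against HC was -2.05 ± 0.26 (SE, adjusted p = 0.554, edgeR).

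Spots were then grouped by marker genes, to see where the members lay. Central myelin-rich and sensory neuron-rich spots had a UMI of at least 5 of 8 genes of oligodendrocytes or of sensory neurons, and marrow-rich spots of at least 3 erythroid and 2 granule genes. In HC, Bglap stood at 168 CPM in 910 sensory neuron-rich spots, with a UMI in 86.0% of them, and at 83.6 CPM in 197 central myelin-rich spots, with a UMI in 43.7%. The median spot held 16957 UMIs in the first class and 9568 in the second. After thinning, the shares were 28.5% (exact 95% interval 25.5% to 31.5%) and 14.2% (9.66% to 19.9%). The thinned Bglap share was higher in HC spots of none of the marker classes, at 37.98% (29.6% to 46.9%). In marrow-rich spots of HC it was 33.3% (26.8% to 40.4%). Both intervals overlapped that of sensory neuron-rich spots. Spots of both neural classes stood at 19.6% (16.5% to 23.2%). The TN values in sensory neuron-rich spots were 64.8, 32.0 and 35.3 CPM, all below HC. In those spots the log2 fold change of Bglap in TN against HC was -2.02 ± 0.40 (SE, adjusted p = 0.491, edgeR), nearly that of all spots. Central myelin-rich spots were chosen as spots that should hold no bone, and their shares are given as a reference for the others. Spots that also met the sensory neuron rule formed the class of both, and marrow-rich spots were kept out of the neural classes. No other rule left spots out, so the central myelin-rich class was not shown to be free of bone or marrow RNA. In TN1, TN2 and TN3 the thinned Bglap shares were 2.69%, 6.36% and 5.10% in central myelin-rich spots. They were 7.76%, 3.78% and 7.91% in sensory neuron-rich spots, lower than in central myelin-rich spots in TN2. The intervals of the 2 classes overlapped in TN2 and TN3 and were apart in TN1. Ibsp had a UMI in 5.58% of the central myelin-rich spots of HC and in 1.52% after thinning (0.315% to 4.39%). Its thinned share in HC was 7.80% (6.14% to 9.74%) in sensory neuron-rich spots and 8.59% (5.08% to 13.4%) in marrow-rich spots. It was 8.53% (4.33% to 14.7%) in spots of none of these classes and 2.63% (1.48% to 4.30%) in those of both neural classes. Alpl was at 16.7, 94.2, 16.6 and 18.1 CPM in central myelin-rich spots of TN1, TN2, TN3 and HC, with TN2 far above the rest.

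**Figure D2:**
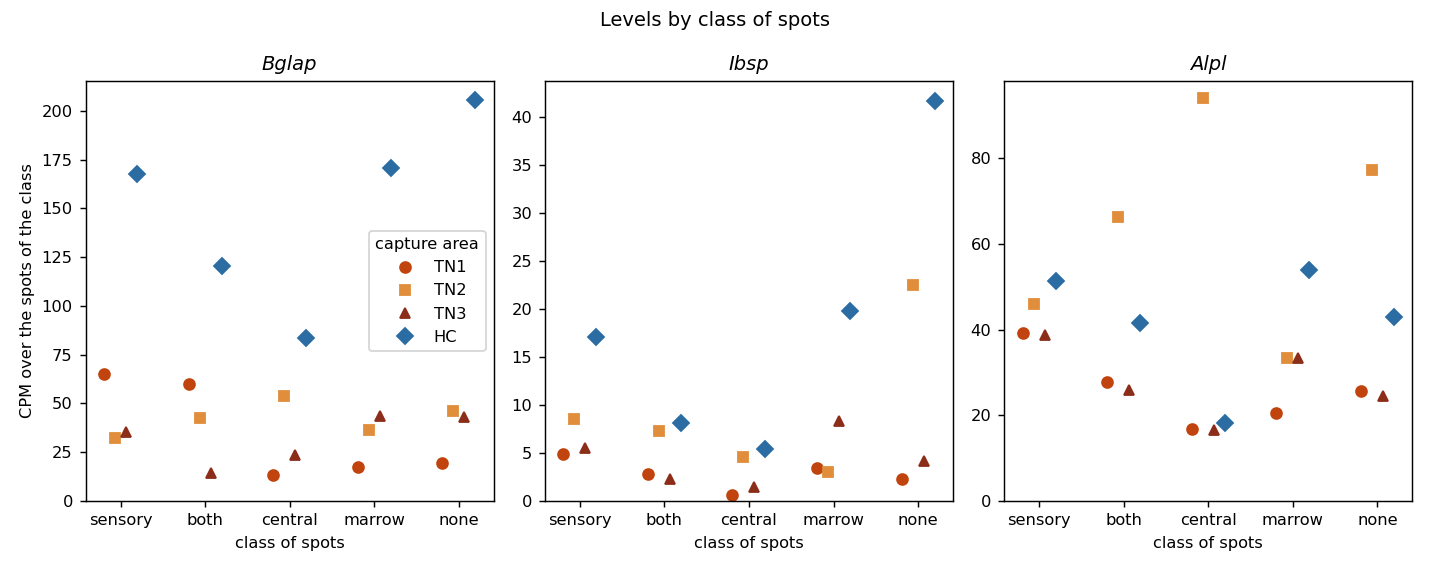
Levels in CPM by class of spots (sensory neuron-rich, both, central myelin-rich, marrow-rich, none of these) in each capture area, 1 point per area. Bglap of HC lies above the TN areas in all 5 classes, from 83.6 CPM in central myelin-rich spots upward, whereas Alpl is highest in TN2 in 3 of the 5.

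The overlap with marrow genes depended on the gene and on the area. Of marrow-rich spots TN1 had 15, TN2 6, TN3 23 and HC 198, and only TN3 and HC had the 20 needed for a test. The marrow-rich spots of HC held 16606 UMIs in the median, against 14616 over all HC spots, and Calca at 1056 CPM, close to its 1106 CPM in sensory neuron-rich spots. Bglap stood at 43.3 CPM in marrow-rich spots of TN3 and at 171 CPM in those of HC, beside 35.5 and 147 CPM over all spots. With the area as a block, 2.26% of 12828 genes were called and none of the 3 members. The log2 fold change was 0.24 ± 0.12 (SE, adjusted p = 0.530, edgeR) for Bglap, 0.59 ± 0.23 (adjusted p = 0.248) for Ibsp and 0.19 ± 0.14 (adjusted p = 0.795) for Alpl.

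A rule on the level of marrow genes gave a different result. Spots in which the erythroid and granule genes together reached 500 CPM numbered 65, 21 and 118 in TN1, TN2 and TN3 and 524 in HC, and all 4 areas entered the test. Ibsp stood at 66.3 CPM in these spots of HC and at 6.83 CPM in the other spots, 9.70 times as high. In TN1 it stood at 1.68 against 3.14 CPM, in TN2 at 19.003 against 8.70 CPM and in TN3 at 5.28 against 4.83 CPM, so that the direction was not shared. Bglap stood at 344 against 120 CPM in HC, 63.7 against 47.7 in TN1, 32.6 against 36.1 in TN2 and 75.2 against 34.6 in TN3, higher in 3 of 4 areas. Of the HC spots at or above 500 CPM, 1 held 281 of their 1731 Bglap UMIs. Alpl stood at 65.3 against 43.8 CPM in HC, 28.5 against 29.5 in TN1, 46.1 against 54.5 in TN2 and 44.8 against 33.2 in TN3. Sp7 had 0 UMIs in these 728 spots. If a count of 0 is taken to allow 3, the share of spots with a UMI could be up to 0.412%, which is not an exact interval. In the 524 spots of HC the exact 95% binomial interval reached 0.702%.

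In this contrast 9.51% of 12417 genes were called, and 3.55% were called as higher. Of the 3 members tested, 2 rose. Ibsp had a log2 fold change of 2.23 ± 0.41 (SE, adjusted p = 0.00249, edgeR) and Bglap of 1.08 ± 0.19 (adjusted p = 0.00166), while Alpl stood at 0.39 ± 0.16 (adjusted p = 0.124). The paper on these data had already listed Ibsp with S100a8, S100a9, Slc4a1, RatNP-3b and Ahsp as abundant in a cluster of the same spots. Those other genes are in the marrow lists, so the Ibsp call is not independent of that earlier result. The call for Ibsp rested on HC, since without HC its log2 fold change was 0.47 ± 0.53 (SE, adjusted p = 0.755, edgeR), and it was also lost with DESeq2 (adjusted p = 0.140). Bglap was called in all 12 alternatives, with 0.68 ± 0.21 (SE, adjusted p = 0.0380, edgeR) when HC was left out, a fit that called 5.31% of 12293 genes. The TN values of Ibsp rest on few reads, 1, 7 and 4 UMIs in the spots at or above 500 CPM of TN1, TN2 and TN3. Those of Bglap rest on 38, 12 and 57 UMIs. TN2, where Bglap was lower in these spots, had too few spots for some of the alternatives. It did not enter the rule with at least 5 marrow UMIs, with 15 spots, nor the spots from 5000 to under 20000 UMIs, with 10.

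**Figure D3:**
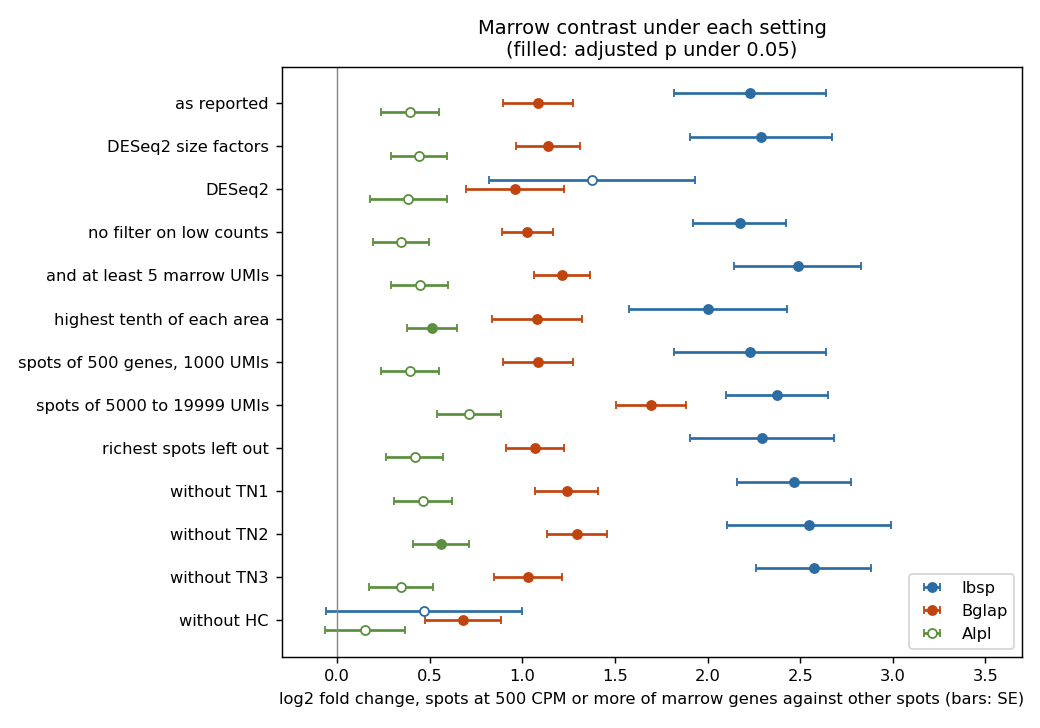
Log2 fold change with SE of Ibsp, Bglap and Alpl in spots at 500 CPM or more of marrow genes against other spots of the same area, as reported and under 12 alternatives; filled points have an adjusted p under 0.05. Bglap stays filled throughout, and Ibsp moves from 2.23 to 0.47 when HC is left out.

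Related genes in the same contrast are given beside the 9.51% of 12417 genes that it called. With so few genes in a list, a small count of calls, or none, cannot be told from that share. Of 9 osteoblast list genes tested, 2 rose, among them Col1a1 (1.01 ± 0.20), and 1 fell, Spp1, osteopontin, which fell by 0.47 on the log2 scale. The median was 0.47 for the list and -0.04 over all genes. The other 6 were not called, at 0.49 for Msx2, 0.47 for Runx2 and Tmem119, 0.21 for Cthrc1 and Pth1r and 0.19 for Sparc. None of the 6 mineralization genes was called. Ankh stood at 1.34, Enpp1 and Phospho1 at 0.16, Smpd3 at 0.05, Slc20a2 at 0.04 and Slc20a1 at 0.00073. Of 3 genes of the Gla list, Mgp rose (0.76 ± 0.13), with Vkorc1 at 0.19 and Ggcx at -0.14. Of 5 osteoclast list genes tested, 1 rose, Mmp9 (2.54 ± 0.44), which neutrophils also make, whereas Acp5 (0.58 ± 0.25) and Nfatc1 (0.07 ± 0.60) were not called. Dmp1, the 1 osteocyte gene tested, stood at 2.08 ± 0.68 (SE, adjusted p = 0.0634, edgeR). None of 6 cartilage genes was called, with a median of -0.35. Other tissue moved too. Of 8 central myelin genes 5 rose, among them Mobp (1.2 ± 0.20), 2 of 6 sheath fibroblast genes rose, among them Fmod (1.01 ± 0.29), 2 of 6 endothelial genes rose, among them Slco1a4 (0.52 ± 0.15), and none of 5 Schwann cell genes was called. Of 7 sensory neuron genes tested 5 fell, with Tac1 lowest, which fell by 1.10 on the log2 scale. Their part in the result was not tested.

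Ranking the spots of each area by marrow level gave finer steps, and in TN the directions were not all those of the 500 CPM rule. In HC, Ibsp stood at 110 CPM in the top 10% of spots, 50.03 CPM in those from 10% to 25%, 17.6 CPM from 25% to 50% and 3.31 CPM in the lowest 50%. The top was 33.2 times the lowest 50%. In TN1, TN2 and TN3 the same ratio was 3.60, 2.21 and 1.74. The TN1 ratio rests on 11 Ibsp UMIs in the top 10%, of which 1 spot held 9. Under the 500 CPM rule Ibsp was lower in the marrow spots of TN1. For Bglap the ratio was 4.28 in HC and 3.08, 1.22 and 2.16 in TN, and for Alpl 1.86 in HC and 1.73, 1.29 and 1.09 in TN. The TN1 spot with 9 Ibsp UMIs also held 45 of the 114 Bglap UMIs in the TN1 top 10%, and only 1 UMI of marrow genes. The top 10% of HC spots held 27.2% of the Ibsp UMIs of the area and 3.48% of all its UMIs. The top 10% is not the same tissue in each area, since the marrow genes summed there to 701, 366 and 830 CPM in TN1, TN2 and TN3 and to 4458 CPM in HC. In TN1 the spots from 25% to 50% reached down to 0 CPM of marrow genes, and those of the lowest 50% were all at 0. The TN1 border between these ranks was therefore set by the order of the spots in the matrix.

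**Figure D4:**
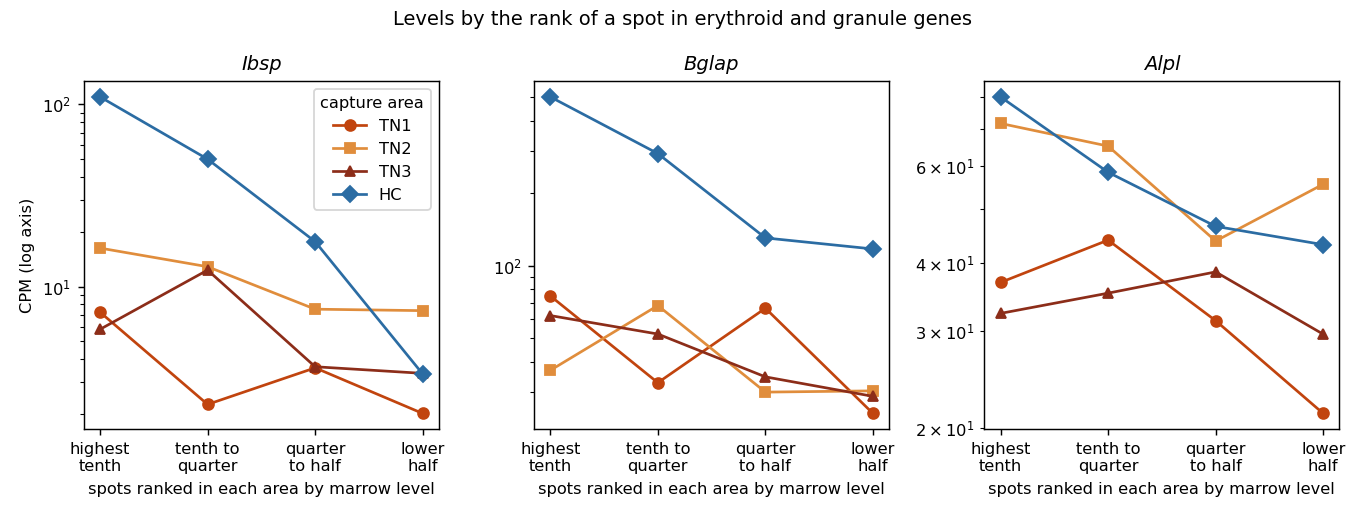
Levels of Ibsp, Bglap and Alpl, in CPM on a log axis, in spots ranked within each capture area by the level of erythroid and granule genes. In HC Ibsp falls from 110 CPM in the top 10% to 3.31 CPM in the lowest 50%, into the range of the TN areas, while Bglap falls from 502 to 117 CPM and stays above them. In TN1 the border at 50% splits spots tied at 0 CPM of marrow genes.

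Bglap and Ibsp thus parted in the HC spots poorest in marrow genes. In the lowest 50% Bglap stood at 117 CPM in HC and at 27.8 ± 3.04 CPM in TN (SD, n = 3), 3.88 times the highest TN area. Ibsp stood at 3.31 CPM in HC and at 4.24 ± 2.79 CPM in TN (SD, n = 3), within the range of the TN areas. Marrow genes still summed to 94.5 CPM in these spots of HC, against 0, 11.9 and 23.9 CPM in TN1, TN2 and TN3, and their part in the Bglap level was not tested. The lowest 50% is also not the same tissue or depth in each area. The median spot held 7625 to 31063 UMIs in the TN areas and 20316 in HC, and Calca stood at 324 to 814 CPM and 1097 CPM. In these spots the log2 fold change of TN against HC was -2.15 ± 0.20 (SE, adjusted p = 0.388, edgeR) for Bglap and 0.30 ± 0.75 (adjusted p = 0.890) for Ibsp, where it was -1.42 over all spots. Ibsp UMIs per 100 Bglap UMIs went from 21.9 in the top 10% of HC through 17.1 and 13.5 to 2.82 in the lowest 50%. In TN the ratio ran over the 4 ranks between 5.37 and 9.65 in TN1, 18.8 and 44.2 in TN2 and 9.38 and 23.7 in TN3, with no such order. In the lowest 50% of HC, Bglap stood at 139 CPM in the spots highest in sensory neuron genes, 112 CPM in the middle group and 54.9 CPM in the lowest group, each of 335 or 336 spots. Their median spots held 37818, 23917 and 11118 UMIs, so that depth fell in the same order. The TN1 values were 40.3, 11.6 and 14.7 CPM, those of TN2 30.8, 24.0 and 37.2 CPM and those of TN3 35.5, 23.2 and 22.1 CPM.

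Depth moved with marrow level and has to be read beside these values. In HC the median spot held 6044 UMIs in the top 10% and 20316 in the lowest 50%. Per spot, Bglap had 3.57 UMIs in the top 10% and 3.14 in the lowest 50%, a smaller difference than in CPM. Ibsp had 0.782 and 0.0885 UMIs per spot, and Alpl 0.569 and 1.15. In TN, spots at or above 500 CPM of marrow genes held fewer Bglap UMIs per spot than the others. The values were 0.585 against 0.719 in TN1, 0.571 against 1.12 in TN2 and 0.483 against 0.605 in TN3. Within bands of depth HC spots rich in marrow genes had more Ibsp at every depth and more Bglap below 20000 UMIs. From 5000 to under 10000 UMIs, with 246 spots at or above 500 CPM of marrow genes and 252 below, Ibsp stood at 88.4 against 31.9 CPM and Bglap at 379 against 131 CPM. From 10000 to under 20000 UMIs, with 126 and 500 spots, Ibsp stood at 49.7 against 6.18 CPM and Bglap at 386 against 91.6 CPM. Of those 126 spots, 1 held 281 of their 660 Bglap UMIs, so the Bglap value of this band leans on 1 spot. At 20000 or more, with 37 and 685 spots, Bglap stood at 118 against 127 CPM and Ibsp at 13.7 against 5.05 CPM. Over spots from 5000 to under 20000 UMIs, in TN1, TN3 and HC, the log2 fold change was 2.37 ± 0.28 (SE, adjusted p = 4.17e-05, edgeR) for Ibsp, 1.69 ± 0.19 (adjusted p = 1.97e-05) for Bglap and 0.71 ± 0.17 (adjusted p = 0.0548) for Alpl, where 1.19% of 11351 genes were called. In these bands the marrow-rich spots held 0 and 1 Ibsp UMIs in TN1 and 1 and 2 in TN3. From 5000 to under 10000 UMIs in TN3 they were lower in Bglap (46.7 against 66.4 CPM) and Alpl (17.5 against 31.6 CPM). In the other TN bands of this fit they were higher in both.

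**Figure D5:**
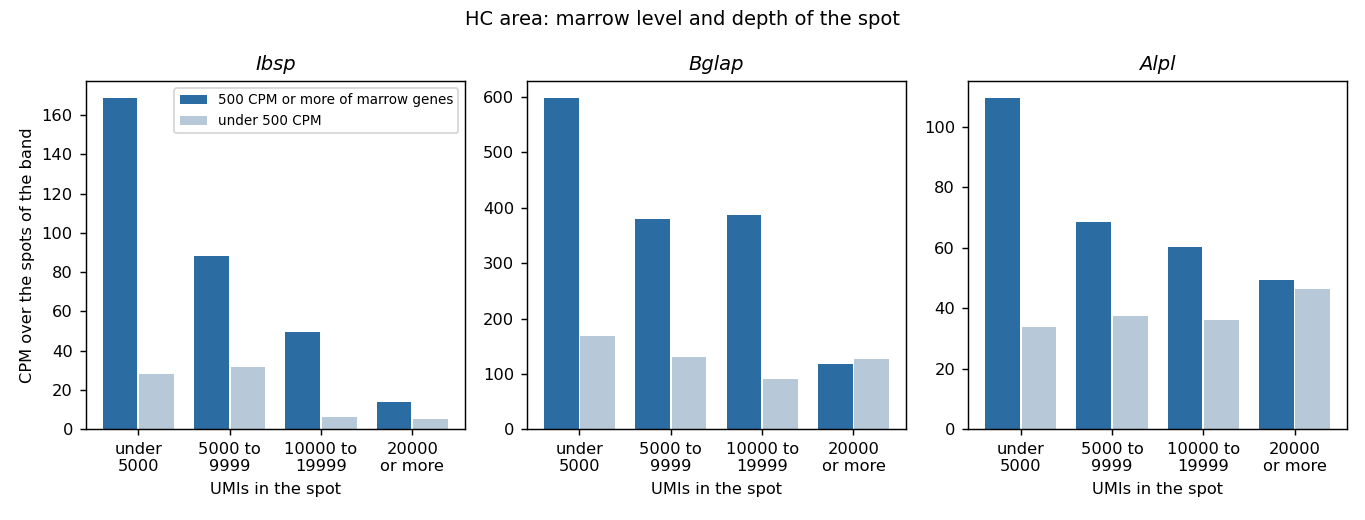
Levels in the HC area of Ibsp, Bglap and Alpl in spots at 500 CPM or more of marrow genes (dark) and in other spots (light), in 4 bands of UMIs per spot; bars are CPM over all spots of the band and class. Ibsp is higher in the dark bars in all 4 bands, and Bglap in the 3 bands below 20000 UMIs. From 10000 to under 20000 UMIs, 1 spot held 281 of the 660 Bglap UMIs of the dark bar.

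The contrast itself differed between HC and TN for Ibsp. An interaction of spot class with condition, with the area as a block, called 10 of 12417 genes (0.0805%), all with a larger contrast in HC, and Ibsp was among them with a difference of 2.90 ± 0.51 on the log2 scale (SE, adjusted p = 0.00450, edgeR). Bglap differed by 0.94 ± 0.30 (adjusted p = 0.546) and Alpl by 0.53 ± 0.32 (adjusted p = 1). Over spots from 5000 to under 20000 UMIs the difference for Ibsp was 1.79 ± 0.76 (SE, adjusted p = 1, edgeR), and the call was lost. Between TN and HC within the spots at or above 500 CPM, Bglap had a log2 fold change of -2.54 ± 0.48 (SE, adjusted p = 0.290, edgeR), Ibsp of -3.19 ± 0.61 (adjusted p = 0.290) and Alpl of -0.73 ± 0.38 (adjusted p = 0.581), in a fit that called 1 of 7924 genes (0.0126%). Without the filter on low counts, Bglap (adjusted p = 6.36e-07) and Ibsp (adjusted p = 2.73e-07) were called by edgeR, in a fit that called 1.61% of 15991 genes. Leaving out 1 TN area at a time gave log2 fold changes from -2.82 to -2.21 for Bglap and from -4.07 to -2.78 for Ibsp. Both genes were called in these fits, but HC is 1 area, so the spread came only from the TN areas that were left. Ibsp also rested on 1, 7 and 4 UMIs in these spots of TN1, TN2 and TN3. No conclusion is drawn from the calls made without the filter, nor from those of the fits without 1 TN area. Those fits called 18.7% of 8151 genes without TN1, 0.82% of 7928 without TN2 and 0.567% of 7410 without TN3.

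Over spots, the members overlapped with each other and with marrow in different degrees. In HC, 51.7% of the 385 spots with an Ibsp UMI were at or above 500 CPM of marrow genes, against 19.96% of the spots without one. The Ibsp spots of HC were the shallower ones, with 10478 against 15320 UMIs in the median. In TN1, TN2 and TN3 the shares were 2.00%, 2.11% and 2.54% of 50, 237 and 118 Ibsp spots, against 4.16%, 1.57% and 6.39% of the others. For Bglap they were 27.6% against 21.0% in HC, and 4.97% against 3.82%, 0.949% against 2.19% and 4.94% against 6.75% in TN1, TN2 and TN3. For Alpl they were 22.03% against 29.9% in HC, and 3.19% against 4.41%, 1.38% against 2.19% and 3.59% against 7.53% in TN, lower in all 4 areas. In every area the spots with Bglap or Alpl were deeper than those without, for Alpl in HC 23485 against 10568 UMIs in the median. Spots at or above 500 CPM were the shallower ones, so depth moved with these shares. In CPM, Alpl was higher in the spots at or above 500 CPM in HC (65.3 against 43.8) and TN3 (44.8 against 33.2), and lower in TN1 and TN2. A Bglap UMI was present in 87.3% of the Ibsp spots of HC and in 54.0%, 53.2% and 55.1% of those of TN1, TN2 and TN3, against 74.3%, 23.1%, 39.4% and 31.3% of the spots without Ibsp. In the 3 TN areas the spots with Ibsp were deeper than those without, so that depth moved with this overlap.

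The genes most like each member were found by Pearson's r of log2(CPM + 100) over spots, averaged over the 4 areas, among 11643 genes. Col1a1, the main collagen of bone and of fibrous tissue, came first for Bglap, Ibsp and Alpl, at 0.298, 0.215 and 0.221. For Bglap its r was 0.15, 0.27 and 0.19 in TN1, TN2 and TN3 and 0.58 in HC. After it came Ibsp (0.21), Col11a1 (0.20) and both genes listed as the hemoglobin gene Hba-a2 (0.19) for Bglap. Ibsp had Bglap, AABR07000398.1 (0.195) and AY172581.24 (0.175), which the files give under sequence accessions, and 1 of the Hba-a2 genes (0.18). Alpl had Pdgfrl, Fmod, Igfbp5 and Shisa3 (0.18 to 0.19), with Fmod at 0.45 in TN2. Alpl had r of 0.17 with Bglap and 0.15 with Ibsp. These correlations are weak and are given as a description. The spots of an area share 1 library and differ in depth, and Sp7 had too few UMIs for any.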

How the data were processed

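UMI counts per gene and spot were deposited by the authors as whole numbers without normalization, in 1 matrix of 4 capture areas, made with Space Ranger 1.2.0 and STAR per the file headers and the submitters' processing notes. The area was taken from the number after each barcode. The sources used here give neither the genome build and annotation nor any equalising of depth. No column of per-sample values was left unused.

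Members and lists were chosen with earlier results of these data known. UMIs were summed per area, or per area and spot class, since spots are not replicates. Sums were tested with edgeR 4.0.16 in R 4.3.3 (TMM, filterByExpr, quasi-likelihood test, Benjamini-Hochberg adjustment over all genes tested, threshold 0.05), and SE was the log2 fold change divided by the root of F. The spread came from 3 TN areas and 1 HC area, with 2 residual degrees of freedom for TN against HC, 1 for marrow-rich spots, 3 for the 500 CPM rule and 2 for the interaction. HC gives no spread of its own. A class needed 20 spots in an area. TN against HC in marrow-rich spots could not be fitted as planned, because only 1 TN area had 20, and the planned 500 CPM rule was used instead and reported as a comparison of its own. That step, the interaction, the ranks, the depth bands, the lowest 50% of spots, the sensory neuron-rich spots and the removal of the richest spots were chosen after seeing the data. Other alternatives were DESeq2 1.42.0, its size factors, no filter, spots with 500 genes and 1000 UMIs, areas left out, stricter marrow rules and leaving out mitochondrial, ribosomal protein and hemoglobin genes. Intervals are exact binomial or Poisson at 95% and cover counting error only. Genes were named by rule: the members, the 5 genes most like each, the neighbour Pmf1, all found genes of the osteoblast, osteocyte, mineralization and Gla lists, and examples of the other lists from their 2 highest and 1 lowest log2 fold changes. Dlx6 and Pecam1 were not found by symbol. 1 gene of the osteoblast list, called higher under the 500 CPM rule, enters its counts and medians and is not reported here by name or value.

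On simulated counts with 200 changed genes, edgeR recovered 4.48%, 46.3% and 72.7% of changes of 1, 2 and 3 on the log2 scale for TN against HC over all spots, with 4 false calls among 14902 genes. For the 500 CPM rule it recovered 64.2%, 85.1% and 93.9%, with 9 false calls among 12417 genes. Sequences were copied from RefSeq promoter windows of build GRCr8, where 3 of the 4 members matched.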

Additional observations from a re-analysis of the deposited data

Results flagged for a closer look

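The contrast between spots at or above 500 CPM of marrow genes and the other spots differed between HC and TN for Ibsp, by 2.90 ± 0.51 on the log2 scale (SE, adjusted p = 0.00450, edgeR interaction). It was called in 7 of 8 alternatives, with differences from 1.79 to 3.45. The exception was spots from 5000 to under 20000 UMIs, at 1.79, a fit that TN2 had too few spots to enter. Leaving out TN2 over spots of all depths gave 3.45. The part of depth in the lower value was not tested. DESeq2, under which the Ibsp contrast itself lost its call, was not among these alternatives. Some of the calls came from fits without 1 TN area, where the spread came only from the TN areas left. HC is 1 area, so condition and capture area cannot be told apart. Marrow genes of the spots at or above 500 CPM summed to 1267, 1273 and 1279 CPM in TN1, TN2 and TN3 and to 1824 CPM in HC, and the part of this difference in the result was not tested.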

How the results depend on the processing

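Of 129 recomputed log2 fold changes of the members, 109 kept their direction and side of the threshold, 16 passed it, 3 lost it and 1 reversed. The cause of these changes was not tested. The reversal was Ibsp in TN against HC, at 0.30 in the 50% of spots with the lowest marrow level. For TN against HC over all spots, DESeq2 called 164 genes and Bglap (-1.99). Without 1 TN area at a time, 0 to 2171 genes were called and Bglap ran from -2.13 to -1.87. The 2171 came without TN1. For marrow-rich spots DESeq2 called 45 genes, and the 500 CPM rule 1181 genes with Bglap at 1.08 and Ibsp at 2.23. Under that rule DESeq2 called 730 genes with Ibsp at 1.38, not called, the top 10% of spots 1939 genes with Alpl at 0.51, called, and spots from 5000 to under 20000 UMIs 135 genes. Without 1 area at a time, 653 to 1169 genes were called, with Ibsp from 0.47 to 2.57 and Alpl from 0.15 to 0.56. Ibsp lost its call without HC, and Alpl gained one without TN2 (0.56). For TN against HC in those spots, DESeq2 called 32 genes with Bglap at -2.58, no filter 258 genes with Bglap at -2.64 and Ibsp at -3.29, and leaving out a TN area 42 to 1527 genes with Bglap from -2.82 to -2.21 and Ibsp from -4.07 to -2.78. For the difference in the contrast, DESeq2 size factors and spots from 5000 to under 20000 UMIs each called 2 genes, no filter 17, the top 10% 36 with Bglap at 1.51, called, and leaving out a TN area 15 to 27. Ibsp stood at 1.79, not called, from 5000 to under 20000 UMIs.

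Thinning moved the shares of spots with a UMI to 4.25% (Bglap), 0.380% (Ibsp) and 4.37% (Alpl) for TN1. They were 6.13%, 2.02% and 9.92% for TN2, 6.94%, 0.50% and 5.77% for TN3, and 25.6%, 5.84% and 9.53% for HC. The share for Sp7 was 0 in TN2 and TN3. Under the stricter marrow-rich rule, met by 10 spots of HC and none of TN, 100% held Bglap and 40% Ibsp. No fold change could be fitted under that rule, nor with an area left out of the marrow-rich test. No paired analysis was possible because HC is a single area whose label carries no number shared with TN. With 4 areas and few UMIs, differences in Sp7 were not detectable at this depth.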
